A study of Mus musculus with 19 samples.

Results

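To ask which transcripts differed with a high-fat diet in healthy muscle, quadriceps of wild-type control (CTR) mice fed a high-fat diet (HFD) was compared with quadriceps of CTR mice fed a purified normal chow diet (NCD). The samples were chosen by their titles, which gave 4 CTR-HFD and 5 CTR-NCD arrays, or 9 of the 19 arrays of the series. All 9 samples came from C57Bl6J male mice that were 180 days old, carried no mutant allele and had received their diet from 40 days of age. The other 10 arrays, 5 AR113Q-NCD and 5 AR113Q-HFD, held quadriceps of knock-in mice that express a polyglutamine-expanded androgen receptor. They served as a second diet comparison, and all 19 arrays shared 1 estimate of the spread. Total RNA was labelled with a single dye and hybridized to Agilent whole-genome arrays, with a single sample per array. Whether an array stands for 1 mouse or for pooled mice is not given in the sources used here, so p-values measure the spread between these samples. The hour of collection and the feeding state at collection are likewise not given.

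Skeletal muscle takes up fatty acids from the blood, stores part of them as triglyceride and burns the rest by beta-oxidation in mitochondria and peroxisomes. It also makes some fatty acid itself, from citrate and acetyl-CoA through ATP citrate lyase, acetyl-CoA carboxylase and fatty acid synthase, and the transcription factor SREBP1 drives many genes of this route. Dietary fat, and polyunsaturated fat in particular, is known to lower lipogenic transcripts in liver, and fatty acids are ligands of the PPAR receptors that drive genes of fatty acid oxidation.

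Each signal is a log2 value from which the array's own 75th percentile was subtracted, which makes that percentile 0, and a diet difference is the mean of the HFD arrays minus the mean of the NCD arrays. Of the probes, 32026 were tested, for 24741 genes, and each gene is given by its probe with the highest mean signal. Probes well above background made up 70.4% to 80.1% of an NCD array and 67.1% to 77.4% of an HFD array, and the number of arrays limits the precision. All 10 genes listed as skeletal muscle markers were measured on every array, and their summed log2 signal was 11.68 to 11.91 on the NCD and 11.74 to 11.91 on the HFD arrays. Of these markers, 6 had a positive and 4 a negative diet difference, the lowest at -0.24. At an unadjusted p under 0.05 in limma, 1 of the 10 was lower and none higher, against 3.07% and 5.41% of all genes. The alpha-actin gene Acta1, a defining marker, had a diet difference of 0.028 ± 0.082 (SE) (n = 5 NCD and 4 HFD arrays). The reference transcripts Actb and Gusb had differences of 0.0008 and 0.075. The 9 arrays lay on 5 slides, which AR113Q arrays shared, and 4 of the slides held both a CTR-NCD and a CTR-HFD array. This gave a difference within each of these 4.

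In wild-type muscle, no gene passed the threshold of the comparison, an adjusted p under 0.05 in limma together with a ratio of HFD to NCD not under 1.5 or not above 0.6. The share called was 0% of the 32026 probes, and the smallest adjusted p was 0.273. At an unadjusted p under 0.05 in limma, 1339 of 24741 genes were higher on the HFD (5.41%) and 760 were lower (3.07%). Leaving out NCD replicate 3 or HFD replicate 2 brought the higher genes to 793 and 831, and the slide as a block to 2252, with 1204 lower. With the deposited normalized values in place of the scanner signals, the split was 862 higher and 822 lower. The HFD arrays all lay above the NCD arrays in 383 genes (1.55%) and all lay below them in 273 genes (1.1%). Most differences were small, with a median absolute log2 difference of 0.13, and the median over all genes was 0.023. Of all 24741 genes, 13654 had a positive and 11087 a negative difference. In the 10 AR113Q arrays, which the wild-type comparison does not share, 798 genes were higher on the HFD (3.23%) and 844 were lower (3.41%) at that p. Of the genes higher in wild type at this p, 72% also had a positive diet difference in AR113Q muscle, against 59.7% of all genes with a positive wild-type difference. Of those lower in wild type, 70.5% were also negative in AR113Q muscle, against 62% of all genes with a negative difference. The gene differences given here therefore did not pass correction over all probes, and are described by their size, their spread and their order on the arrays.

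The genes of fatty acid synthesis stood lower on the HFD. All 18 listed genes were tested, 14 had a negative difference, 10 were lower and 1 was higher at an unadjusted p under 0.05, and the median difference was -0.43, where the median over all genes was 0.023. Over all genes, 3.07% were lower and 5.41% higher at that p. Enzymes and carriers of the route from citrate to monounsaturated fatty acid were among the 10: the mitochondrial citrate carrier Slc25a1, acetyl-CoA carboxylase 1 (Acaca), fatty acid synthase (Fasn) and the stearoyl-CoA desaturases Scd1 and Scd2. With the slide as a block the list again had 10 lower and 1 higher gene, with a median of -0.47. Without HFD replicate 1, 6 genes were lower at that p, and with each array left out in turn the median stayed between -0.51 and -0.37.

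Fasn, which builds palmitate, had log2 signals of -2.29, -1.53, -1.72, -0.73 and -0.96 on the NCD arrays (replicates 1 to 5) and -3.72, -2.36, -3.42 and -2.29 on the HFD arrays (replicates 1 to 4). Every HFD array lay below every NCD array, although the highest HFD array and the lowest NCD array were nearly level. The difference was -1.50 ± 0.41 (SE), a level 2.83-fold lower on the HFD, with an adjusted p of 0.351 in limma and an exact permutation p of 0.0159, the smallest that 4 against 5 arrays can give in a 2-sided test. Every gene without overlap between the diets has this exact p (1.55% of genes higher and 1.1% lower), so it restates the order of the arrays. Within the 4 shared slides the difference was -1.43, -0.83, -1.70 and -1.33, and with normexp background correction it was -0.95. The Fasn probe lies at chr11:120667666-120667725 (mm9).

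Srebf1, the gene of the lipogenic transcription factor SREBP1, was at -1.31, -0.85, -1.16, -0.86 and -0.59 on the NCD arrays and -1.80, -1.55, -1.76 and -1.35 on the HFD arrays, again with no overlap between the diets, and had a difference of -0.66 ± 0.13 (SE) (limma, adjusted p = 0.273). Insig1, which retains SREBP in the endoplasmic reticulum and is itself an SREBP target, was at -3.06, -2.77, -2.62, -2.50 and -2.27 on the NCD arrays and -3.59, -3.34, -3.46 and -2.93 on the HFD arrays. One HFD array, replicate 4, overlapped the NCD range of Insig1, and the difference was -0.69 ± 0.17 (SE).

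Scd2, the desaturase isoform of many tissues outside the liver, had the smallest unadjusted p of the list (5.05e-05, limma). Its signals were 2.07, 2.89, 2.38, 2.55 and 3.23 on the NCD arrays and 1.16, 1.70, 1.70 and 1.69 on the HFD arrays. The HFD arrays lay below all NCD arrays, with 3 of them nearly equal and replicate 1 lower still, and the difference was -1.06 ± 0.20 (SE) (limma, adjusted p = 0.273). Scd1, its paralog, was more variable, at 2.61, 3.28, 3.94, 4.62 and 3.65 on the NCD arrays and 0.76, 3.39, 1.40 and 3.12 on the HFD arrays. HFD replicates 2 and 4 lay within the NCD range of Scd1, and replicates 1 and 3 far below it. Scd1 had a difference of -1.45 ± 0.54 (SE) and a positive value within 1 of the 4 slides, and it did not pass the unadjusted threshold without HFD replicate 1 or HFD replicate 3.

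Acaca, which makes malonyl-CoA for synthesis in the cytosol, had a difference of -0.61 ± 0.22 (SE), and the HFD arrays, at 1.08 to 1.40, did not reach the NCD arrays, at 1.46 to 2.41. Elovl6, which elongates palmitate, had a difference of -1.10 ± 0.39 (SE) and overlapped through HFD replicate 2. Slc25a1 (-0.64), the delta-5 desaturase Fads1 (-0.45) and the lipid droplet protein Pnpla3 (-0.42) had smaller differences, with overlapping arrays, and each missed the unadjusted threshold in 6 of the 9 fits that left out an array. A second, dimmer Pnpla3 probe was opposite in sign, at 0.52 (limma, unadjusted p = 0.155). Srebf1, Insig1, Acaca, Fasn, Elovl6, Scd2 and Acacb passed it in all 9 of these fits. Acly, the ATP citrate lyase gene, had a difference of -0.35 ± 0.22 (SE) and did not pass the unadjusted threshold (limma, unadjusted p = 0.127). Thrsp (-0.39), Me1 (0.14) and the carbohydrate-responsive factor Mlxipl (0.058) did not pass it either. Aacs, acetoacetyl-CoA synthetase, which feeds ketone bodies into lipid synthesis in the cytosol, was not on the list. It was among the 10 largest negative differences that met the naming conditions given below, at -0.74 ± 0.21 (SE).

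Acacb was the exception in direction. It encodes acetyl-CoA carboxylase 2, whose malonyl-CoA restrains entry of fatty acids into mitochondria. Its signals were 4.89, 4.82, 4.75, 4.93 and 5.04 on the NCD arrays and 5.19, 5.24, 5.19 and 5.15 on the HFD arrays, so every HFD array lay above every NCD array, with a difference of 0.31 ± 0.079 (SE) (limma, adjusted p = 0.347). With the deposited normalized values the Acacb difference was 0.065. A second, dimmer Acacb probe had a difference of -0.14, and the 2 Acacb probes thus disagreed in sign.

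**Figure D1:**
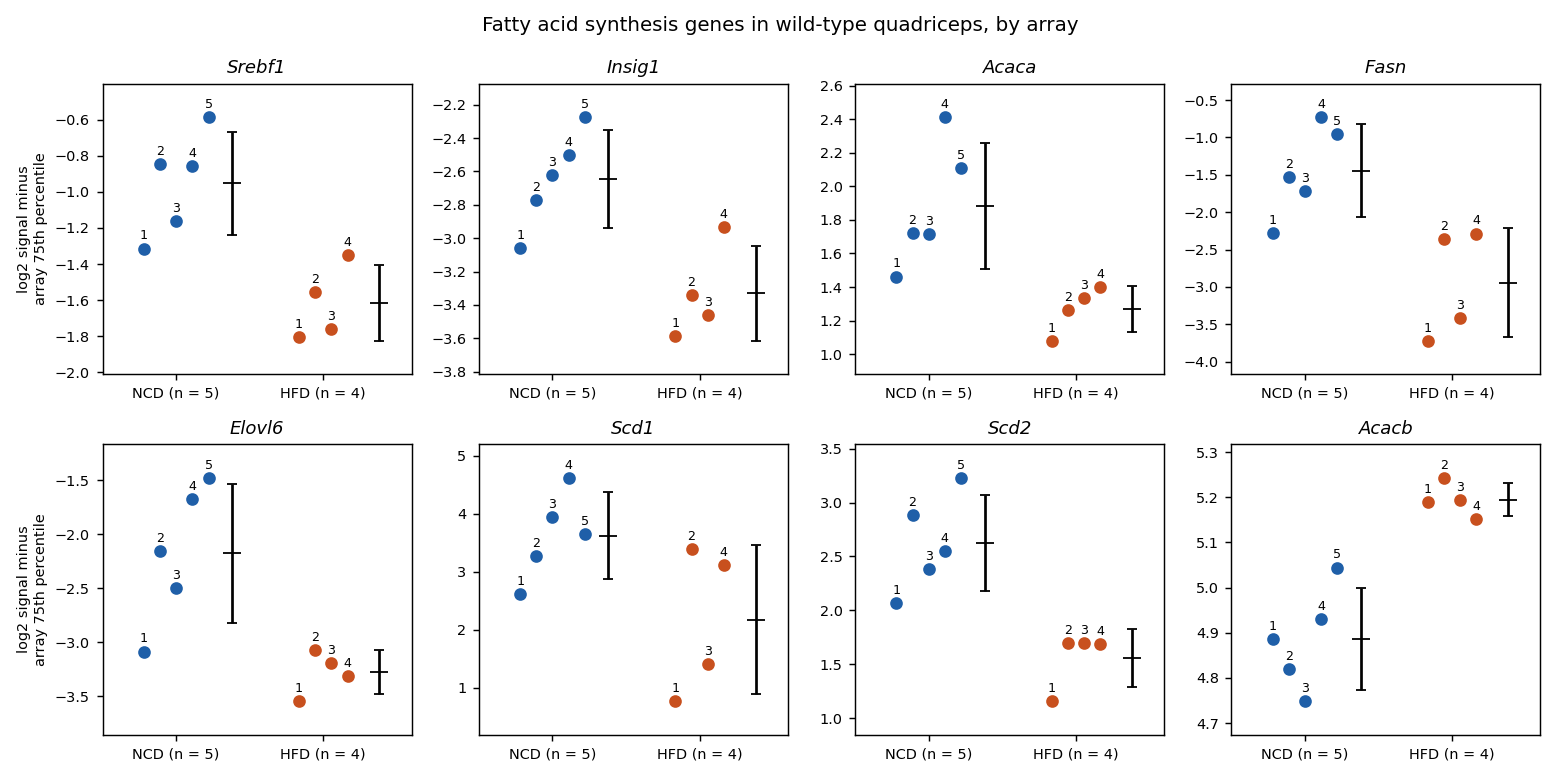
Log2 signal relative to the 75th percentile of the array for 8 fatty acid synthesis genes, with a numbered point per array (blue, CTR-NCD, n = 5, and orange, CTR-HFD, n = 4) and the mean with its SD as a bar beside each group. The HFD points lie below the NCD points for Srebf1, Acaca, Fasn and Scd2, overlap them for Insig1, Elovl6 and Scd1, and lie above them for Acacb.

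Adipocytes also express these genes, so adipocyte markers were read on the same arrays. All 15 white adipocyte markers were tested, 8 had a positive and 7 a negative difference, with a median of 0.081 (-0.15 to 0.24 with each array left out), and their summed log2 signal was 7.24 to 8.42 on the NCD and 7.50 to 8.05 on the HFD arrays. Adipoq, the adiponectin gene, was at 1.21, 1.89, 2.78, 3.60 and 2.41 on the NCD arrays and 1.60, 3.63, 1.35 and 3.27 on the HFD arrays, with a difference of 0.081 ± 0.58 (SE). HFD replicates 2 and 4 had the highest Scd1 and the highest Adipoq of the HFD group. Of the brown adipocyte markers, 11 were tested and 8 had a negative difference, with a median of -0.14. Among them 1, the coactivator gene Ppargc1a, was lower at an unadjusted p under 0.05, against 3.07% of all genes. Their summed log2 signal, which the brightest members set, was 8.99 to 9.20 on the NCD and 8.98 to 9.29 on the HFD arrays. Their mean log2 signal was -0.27 to 0.29 on the NCD and -0.79 to -0.12 on the HFD arrays. Ucp1, the defining uncoupling protein of brown fat, was well above background on NCD replicates 4 and 5 alone, at -4.23 and -1.36, and on no HFD array, with NCD replicates 1 to 3 at -8.68, -8.26 and -7.08 (limma, adjusted p = 0.822). These arrays also had the highest Fasn, Acaca and Elovl6. Without both of them, 16 of the 18 fatty acid synthesis genes had a negative difference, 5 rather than 10 were lower at an unadjusted p under 0.05, and the median was -0.39. In that fit 893 of all 24741 genes were lower at that p. Fasn (-1.10), Scd2 (-0.89), Srebf1 (-0.51), Insig1 (-0.52) and Fads1 (-0.58) were the 5, and Acaca (-0.36), Elovl6 (-0.70) and Scd1 (-1.11) no longer passed. In bulk tissue, fewer adipocytes and less RNA per cell cannot be told apart.

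Of the 18 genes, 15 had a promoter entry in RefSeq (GRCm38.p6), and Scd1, Scd2 and Fads1 were not among them. The 200 bases upstream of each transcription start were searched on both strands for a sterol response element (TCACNCCAC), an E-box (CACGTG, the same on both strands) and a CCAAT box (CCAAT, or ATTGG on the other strand). The 15 genes had 19 promoters in the table. A CCAAT box was found in 10 of the 19, an E-box in 3 and the sterol element in 1, against 29.3%, 5.26% and 0.858% of all 32851 promoters in the table. The sterol element lay in a promoter of Mlxipl, which did not pass the unadjusted threshold. The E-boxes lay in promoters of Mlxipl, Elovl5 and Insig1, and Acacb, which stood higher, also had a CCAAT box. The stretches of Fasn (chr11:120824548-120824747, minus strand) and Insig1 (chr5:28071212-28071411, plus strand) are shown because these genes are an enzyme and a regulator of the route that stood lower together. Capitals mark the CCAAT boxes of Fasn, which begin 90, 62 and 59 bases before the start and overlap in the last pair, and the E-box of Insig1, which begins 101 bases before it.
Fasn: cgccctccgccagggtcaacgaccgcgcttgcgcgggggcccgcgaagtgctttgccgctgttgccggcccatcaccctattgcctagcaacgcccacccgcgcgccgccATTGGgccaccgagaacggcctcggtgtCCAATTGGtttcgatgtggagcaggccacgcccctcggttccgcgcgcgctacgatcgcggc
Insig1: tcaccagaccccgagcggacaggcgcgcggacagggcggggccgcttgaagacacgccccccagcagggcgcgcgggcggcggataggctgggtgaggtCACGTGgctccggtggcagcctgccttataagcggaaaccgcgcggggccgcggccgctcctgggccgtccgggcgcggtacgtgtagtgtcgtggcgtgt
A match describes the letters of the stretch and does not show that a factor was bound there.

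The diet difference of these genes in AR113Q muscle, on other arrays, had the same sign for most members. There, 16 of 18 genes had a negative difference, 12 were lower at an unadjusted p under 0.05, and the median was -0.46. Over all genes, 3.41% were lower at that p in AR113Q muscle. Fasn was at 0.035 ± 0.70 (SD, n = 5) on the chow-fed AR113Q arrays and -2.98 ± 0.49 (SD, n = 5) on the AR113Q-HFD arrays, a difference of -3.01 (limma, adjusted p = 0.00973), where the wild-type levels were -1.44 ± 0.62 (SD, n = 5) and -2.95 ± 0.73 (SD, n = 4). The HFD levels of both genotypes were thus nearly level, and the NCD levels were not. Elovl6 (-2.88), Acaca (-1.41) and Acly (-1.35) were likewise more negative in AR113Q than in wild-type muscle, while Scd2 (-0.62) and Srebf1 (-0.33) were less so. The difference between the genotypes in the diet effect was tested as an interaction in limma, and no probe passed an adjusted p under 0.05. The interaction of Fasn had an adjusted p of 0.977 and that of Elovl6 of 0.918, and the smallest over all probes was 0.821.

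**Figure D2:**
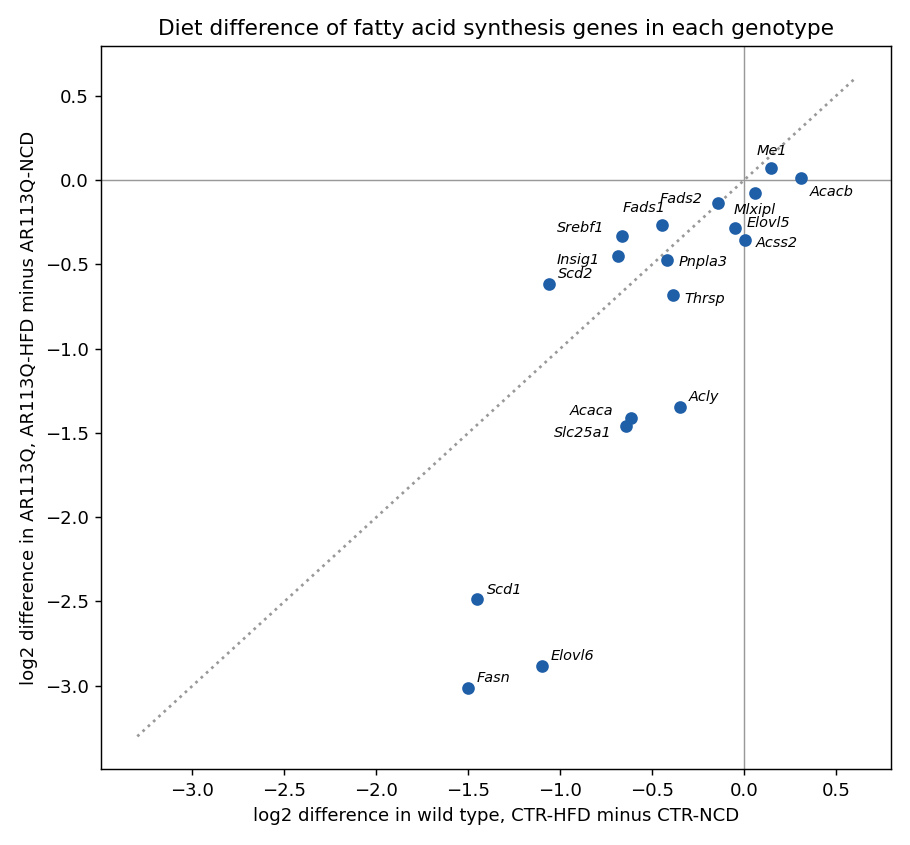
Diet difference (log2, HFD minus NCD) of the 18 fatty acid synthesis genes in wild-type (horizontal axis) and AR113Q (vertical axis) quadriceps, with a point per gene and a dotted line where both are equal. Fasn, Elovl6 and Scd1 lie lowest in AR113Q muscle, and Scd2, Srebf1 and Insig1 lie above the line.

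The cholesterol branch of the SREBP program was less uniform. All 19 genes were tested, 15 had a negative difference, 3 were lower and none higher at an unadjusted p under 0.05 in limma, and the median was -0.12, where 3.07% of all genes were lower and 5.41% higher. Dhcr7, which catalyses the last step to cholesterol in the Kandutsch-Russell pathway, was at -2.12, -2.22, -2.25, -2.59 and -1.87 on the NCD arrays and -2.64, -2.90, -2.82 and -2.65 on the HFD arrays. The HFD arrays all lay below the NCD arrays, and the difference was -0.54 ± 0.13 (SE) (limma, adjusted p = 0.347). Nsdhl, a sterol dehydrogenase, also did not overlap (-0.20 ± 0.086, SE), and its dimmer second probe had -0.034. Hmgcs1, which makes HMG-CoA, was at 0.071 and did not pass the unadjusted threshold.

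Genes of fatty acid oxidation tended the other way, by smaller amounts. Of 24 beta-oxidation genes tested, 21 had a positive difference, 5 were higher and none was lower at an unadjusted p under 0.05 in limma, and the median was 0.20. The share of all genes that were higher at that p was 5.41%. Eci2, an enoyl-CoA isomerase of peroxisomes and mitochondria, did not overlap between the diets (0.41 ± 0.10, SE), nor did Hsd17b4, the peroxisomal bifunctional enzyme (0.31 ± 0.085, SE). Of the mitochondrial members, the carnitine palmitoyltransferase Cpt2 (0.40 ± 0.17, SE) and the electron transfer flavoprotein Etfb (0.25 ± 0.11, SE) passed the unadjusted threshold with overlapping arrays. A second Cpt2 probe had 0.062, and further Etfb probes 0.15 and -0.055. Cpt1b (0.15), Acadl (0.35) and Hadha (0.074) did not pass it.

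With the slide as a block, 3 rather than 5 beta-oxidation genes were higher at that p, without Cpt2 and Etfb. The size of these differences also depended on single arrays. HFD replicate 3 had the highest mean signal of the beta-oxidation list, 4.41, against 3.72 to 4.03 on the other HFD arrays and 3.61 to 3.97 on the NCD arrays. Without it, 17 of 24 genes had a positive difference, the unadjusted threshold was passed by 2 higher genes and 1 lower gene, and the median was 0.063. Eci2 (0.34) and Hsd17b4 (0.21) still passed an unadjusted p under 0.05, whereas Cpt2, at 0.20, and Etfb, at 0.15, did not. Leaving out NCD replicate 4 gave 3 higher genes, and leaving out HFD replicate 4 gave 9, with a median of 0.31. Without both NCD arrays that had Ucp1 above background, 17 genes were positive, 3 were higher and the median was likewise 0.063. In AR113Q muscle the same list had 4 positive and 20 negative differences, with a median of -0.13.

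Of 17 tested PPAR target genes, 14 had a positive difference, 5 were higher and 1 was lower at an unadjusted p under 0.05 in limma, and the median was 0.14, against 5.41% higher and 3.07% lower over all genes. Mlycd, malonyl-CoA decarboxylase, which removes the malonyl-CoA that blocks fatty acid entry into mitochondria, did not overlap between the diets. Its signals were 4.93, 4.92, 4.88, 4.77 and 4.60 on the NCD arrays and 5.44, 5.29, 5.50 and 5.14 on the HFD arrays. Every HFD array lay above every NCD array, the difference was 0.52 ± 0.11 (SE) (limma, adjusted p = 0.273), and within the 4 slides it was 0.51, 0.36, 0.62 and 0.53. The Mlycd probe lies at chr8:121934893-121934952 (mm9).

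Acot1, a cytosolic acyl-CoA thioesterase, had the largest positive difference of the list, 1.49 ± 0.60 (SE), but with signals of -1.56, -1.16, -1.73, -2.57 and -3.24 on the NCD arrays and 0.37, -1.33, 0.96 and -2.24 on the HFD arrays it was high on HFD replicates 1 and 3 and within the NCD range on replicates 2 and 4. Its mitochondrial relative Acot2 (0.61 ± 0.26, SE) had the same order of HFD arrays. These paralogs are near-identical in sequence, so that signal may be shared between their probes. The peroxisome proliferation factor Pex11a (0.32 ± 0.13, SE) and the lipid droplet protein Plin4 (0.30 ± 0.11, SE) also passed the unadjusted threshold. Creb3l3, a liver and gut factor that was dim here, was lower (-0.81 ± 0.30, SE). Pdk4 (0.13), Ucp3 (0.015) and Angptl4 (0.63), which fatty acids are known to raise in muscle, did not pass it, nor did Cidea (-0.14). The median was 0.30 without HFD replicate 1 and 0.29 without HFD replicate 4. Without HFD replicate 3, 9 of the 17 genes had a positive difference, 2 were higher at that p, the median was 0.079, and Acot1 was at 0.98 and Mlycd at 0.47.

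The receptors themselves, Ppara (0.077), Ppard (0.0095) and Pparg (-0.09), did not pass the unadjusted threshold. Among 16 receptor and coactivator genes, 1 passed it, where 3.07% of all genes were lower and 5.41% higher. This was the coactivator Ppargc1a (PGC1alpha), a driver of mitochondrial genes, which was lower. With the slide as a block, Rxra was lower as well (-0.17) and Rxrb (0.17), Tfam (0.17) and Nrip1 (0.43) were higher at an unadjusted p under 0.05 in limma. Ppargc1a was at 3.68, 2.74, 2.40, 2.70 and 2.44 on the NCD arrays and 2.05, 2.65, 2.24 and 1.70 on the HFD arrays. NCD replicate 1 was far above the other arrays and the remaining NCD arrays overlapped HFD replicate 2. Its difference was -0.63 ± 0.27 (SE) (limma, adjusted p = 0.539), negative within all 4 slides, and a second probe had a difference of -0.72. It did not pass the unadjusted threshold without NCD replicate 1, HFD replicate 1 or HFD replicate 4. Of 15 genes of fatty acid uptake and activation, 14 had a positive difference and none passed the unadjusted threshold, with Cd36 at 0.17, Fabp3 at 0.41 and Lpl at 0.071. Without HFD replicate 3, 9 of the 15 were positive. Dgat2 (0.39 ± 0.26, SE), which makes triglyceride, and the aldehyde dehydrogenase Aldh9a1 (0.21) overlapped between the diets.

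**Figure D3:**
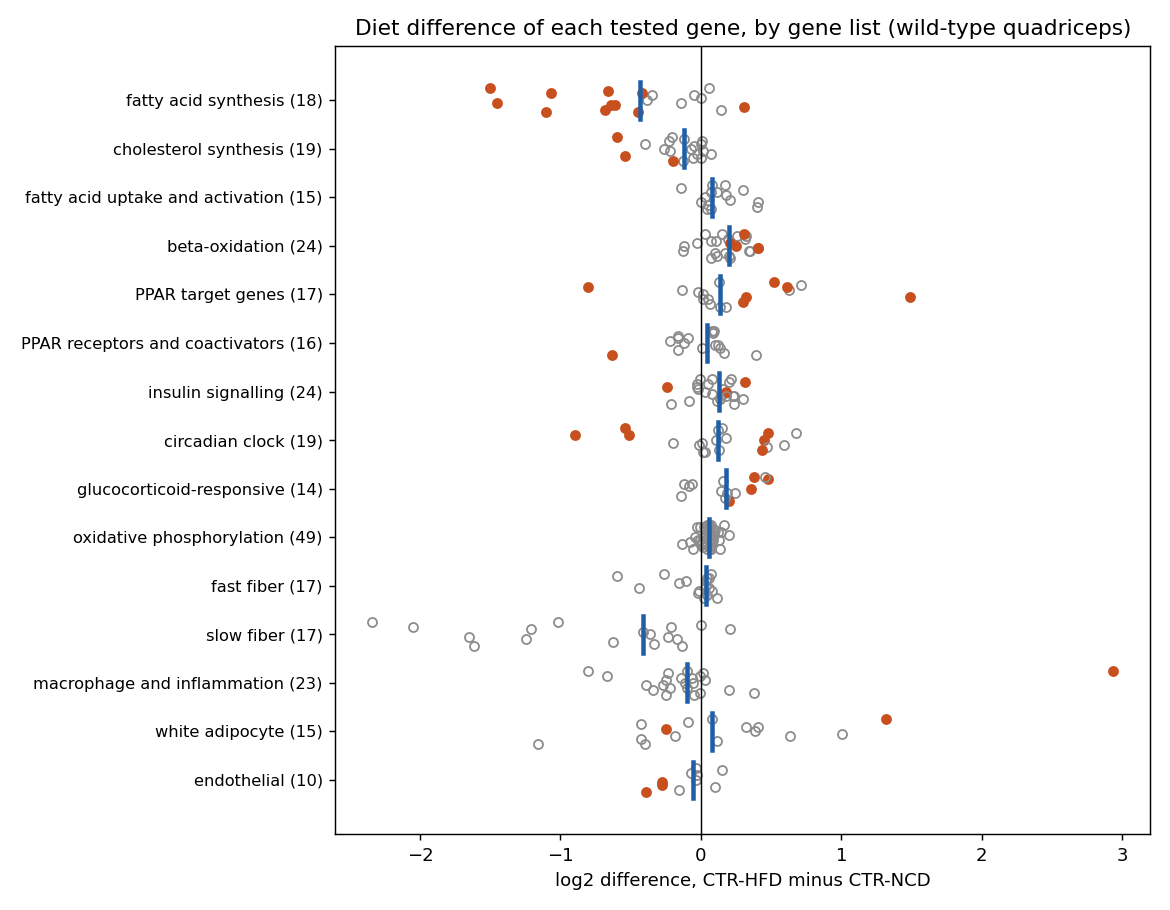
Diet difference (log2, CTR-HFD minus CTR-NCD) of every tested gene of 15 lists, with the number of tested genes in parentheses. Filled orange points have an unadjusted p under 0.05 in limma, open points do not, and the blue bar is the median of the list. Fatty acid synthesis genes lie to the left (median -0.43), beta-oxidation genes to the right (median 0.20), and slow fiber genes are spread widely with no filled point.

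Clock genes differed in both directions. The core clock turns on itself: BMAL1 (Arntl) with CLOCK switches on the Per, Cry and Nr1d1 genes through E-boxes, and REV-ERBalpha, the product of Nr1d1, in turn represses Arntl. Of 19 tested genes, 3 were lower and 3 higher at an unadjusted p under 0.05 in limma, and the median was 0.12, where 3.07% of all genes were lower and 5.41% higher. Nr1d1 was at 2.18, 2.63, 2.74, 2.63 and 2.37 on the NCD arrays and 1.67, 0.88, 1.80 and 2.11 on the HFD arrays. No HFD array reached the NCD range, replicate 2 was the lowest, and the difference was -0.90 ± 0.24 (SE) (limma, adjusted p = 0.351).

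Bhlhe41 (DEC2), a repressor that binds the same E-boxes, was at -0.83, -0.91, -0.90, -0.94 and -0.60 on the NCD arrays and -1.29, -1.29, -1.66 and -1.13 on the HFD arrays. The diets did not overlap and the difference was -0.51 ± 0.12 (SE), while a second, dimmer probe had -0.15. Arntl was lower by limma's unadjusted p with overlapping arrays (-0.54 ± 0.22, SE). The 3 genes that were higher were Per1, at 3.86, 2.85, 2.87, 3.18 and 3.69 on the NCD arrays and 3.67, 3.63, 3.83 and 3.95 on the HFD arrays, Cry2 (0.45 ± 0.16, SE) and the clock-controlled deubiquitinase Usp2 (0.44 ± 0.14, SE). For Per1, NCD replicates 1 and 5 lay within the HFD range and the other 3 below it, and a dimmer Per1 probe had 0.05, and Per1 missed the unadjusted threshold in 6 of the 9 fits that left out an array, as Arntl did in 5. Per2 (0.59 ± 0.30, SE) did not pass the unadjusted threshold. Leaving out HFD replicate 3 or NCD replicate 1 gave 3 lower and 5 higher genes, and leaving out NCD replicate 2, NCD replicate 3 or HFD replicate 1 gave 2 of each.

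RefSeq held promoters of 16 of the 20 listed clock genes, with 21 promoters in all. An E-box lay within 200 bases upstream of the start in 5 of the 21, against 5.26% of all promoters in the table. None was found there for Nr1d1, Arntl, Cry2 or Usp2. The stretches of Bhlhe41 (chr6:145865421-145865620, minus strand), which stood lower, and Per1 (chr11:69098749-69098948, plus strand), which stood higher and has 2 promoter entries, are shown because both hold this letter sequence, in capitals, beginning 153 and 166 bases before the start.
Bhlhe41: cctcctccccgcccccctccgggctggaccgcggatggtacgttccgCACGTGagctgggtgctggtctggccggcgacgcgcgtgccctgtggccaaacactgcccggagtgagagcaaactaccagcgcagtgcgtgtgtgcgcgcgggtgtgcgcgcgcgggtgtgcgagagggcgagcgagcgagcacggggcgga
Per1: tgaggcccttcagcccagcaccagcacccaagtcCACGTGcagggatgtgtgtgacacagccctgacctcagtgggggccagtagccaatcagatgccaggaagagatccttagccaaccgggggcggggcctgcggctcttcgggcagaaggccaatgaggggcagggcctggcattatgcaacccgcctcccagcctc
As these genes were picked for display, the pair does not show how genes with an E-box differed as a set.

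**Figure D4:**
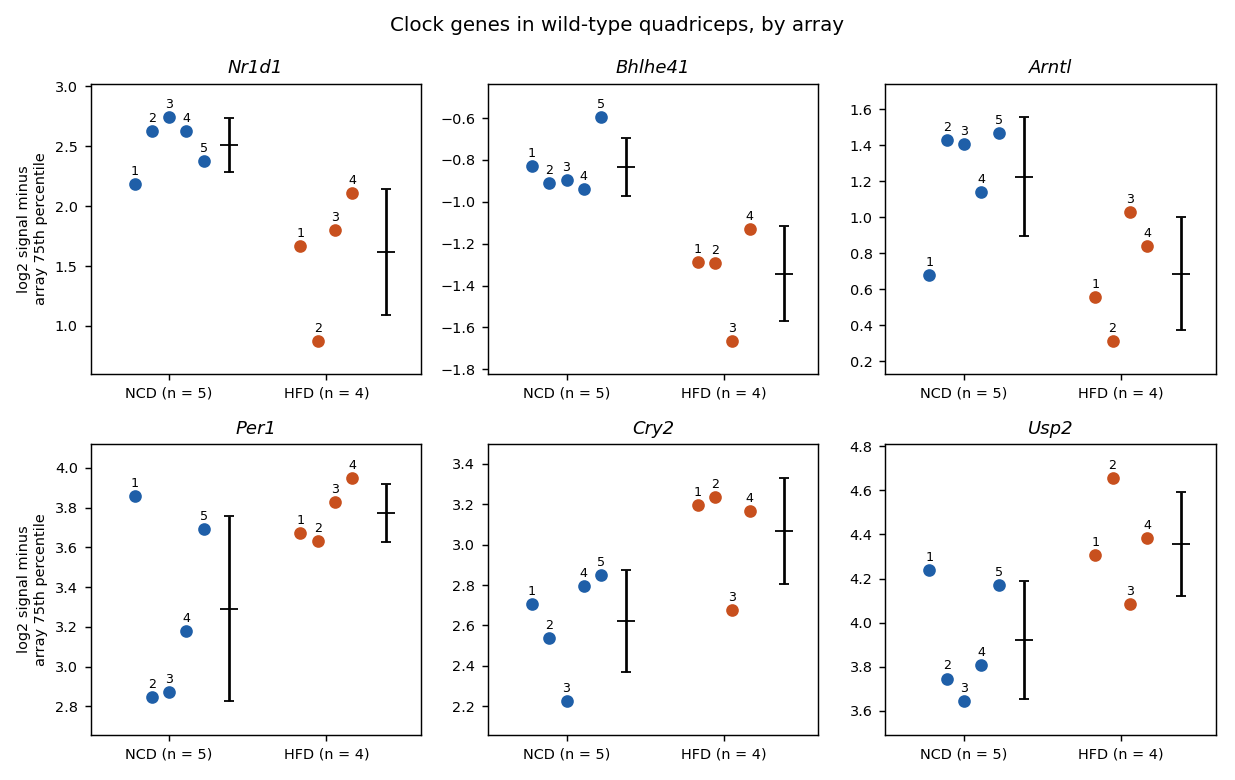
Log2 signal relative to the 75th percentile of the array for 6 clock genes, with a numbered point per array (blue, CTR-NCD, n = 5, and orange, CTR-HFD, n = 4) and the mean with its SD as a bar. The HFD points lie below all NCD points for Nr1d1 and Bhlhe41, and the groups overlap for Arntl, Per1, Cry2 and Usp2.

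Genes that glucocorticoids are known to raise were partly higher. Of 14 tested, 10 had a positive difference and 4 were higher at an unadjusted p under 0.05 in limma, with none lower and a median of 0.18, against 5.41% of all genes higher. Fkbp5, a chaperone of the glucocorticoid receptor, was at 1.19, 1.23, 1.02, 0.94 and 1.16 on the NCD arrays and 1.29, 1.75, 1.53 and 1.38 on the HFD arrays, with no overlap and a difference of 0.38 ± 0.14 (SE). Cebpb (0.36 ± 0.11, SE), Klf9 (0.20 ± 0.084, SE) and Per1, which is on both lists, were the others, and Tsc22d3 (0.24) and Zbtb16 (-0.066) did not pass. Without NCD replicate 2, 3 or 4 or HFD replicate 2, 2 genes of the list were higher at that p.

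Of 24 insulin signalling genes, 17 had a positive difference, with 2 higher genes and 1 lower gene by limma's unadjusted p under 0.05, shares near those of all genes (5.41% and 3.07%). Ptpn1 (PTP1B), the phosphatase that switches off the insulin receptor, was lower without overlap (-0.24 ± 0.085, SE). The glucose transport regulator Tbc1d1 (0.31 ± 0.14, SE) and the kinase Pdpk1 (0.18 ± 0.082, SE) were higher with overlap. The receptor Insr (-0.0077), its substrate Irs1 (0.23) and the glucose transporter Slc2a4 (GLUT4, -0.025) did not pass, and the sign of the Insr and Slc2a4 values changed between alternatives. Among glycolytic genes, Hk2 (0.018), Pfkm (-0.06), Pfkfb3 (0.066), Gapdh (0.052) and Pgk1 (-0.15) did not pass. Dimmer Gapdh probes were mostly opposite in sign, at -0.19 (limma, unadjusted p = 0.0449), -0.14, -0.14, -0.080, -0.078 and 0.022. The transporters Slc2a3 (-0.52) and Slc2a5 overlapped as well. Slc2a5 was well above background on 2 of 5 NCD arrays and on none of the HFD arrays (limma, adjusted p = 0.643).

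Slow fiber genes varied widely between arrays of the same diet. The slow fiber list, 17 genes of type I fibers, had 16 negative differences and none at an unadjusted p under 0.05 in limma, with a median of -0.41. Myh7, the slow myosin heavy chain, was at 3.41, 6.16, 4.89, 0.87 and 3.21 on the NCD arrays and 2.49, -0.97, 6.32 and -2.36 on the HFD arrays. NCD replicate 2 and HFD replicate 3 were the highest and HFD replicates 2 and 4 the lowest, so that the HFD group held both extremes. The difference was -2.34 ± 1.60 (SE) (limma, adjusted p = 0.727), and without HFD replicate 3 it was -3.99.

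The slow troponins Tnni1 (-1.25 ± 1.15, SE), Tnnc1 (-1.21 ± 1.06, SE) and Tnnt1 (-1.62 ± 1.27, SE) were likewise highest on NCD replicate 2 and HFD replicate 3. Ankrd2 (-0.62), Atp2a2 (-0.36), Myh7b (-0.33) and myoglobin (Mb, -0.13) were less spread. Without HFD replicate 3, all 17 slow fiber genes had a negative difference, 9 were lower at an unadjusted p under 0.05 and the median was -1.14. In that fit 886 of all 24741 genes were lower at that p. Without HFD replicate 4, 9 slow fiber genes were negative and the median was -0.063. The fast genes Myh4 (0.075), Tnni2 (0.078) and Pvalb (0.034) differed little between arrays, and of 17 fast fiber genes none passed.

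**Figure D5:**
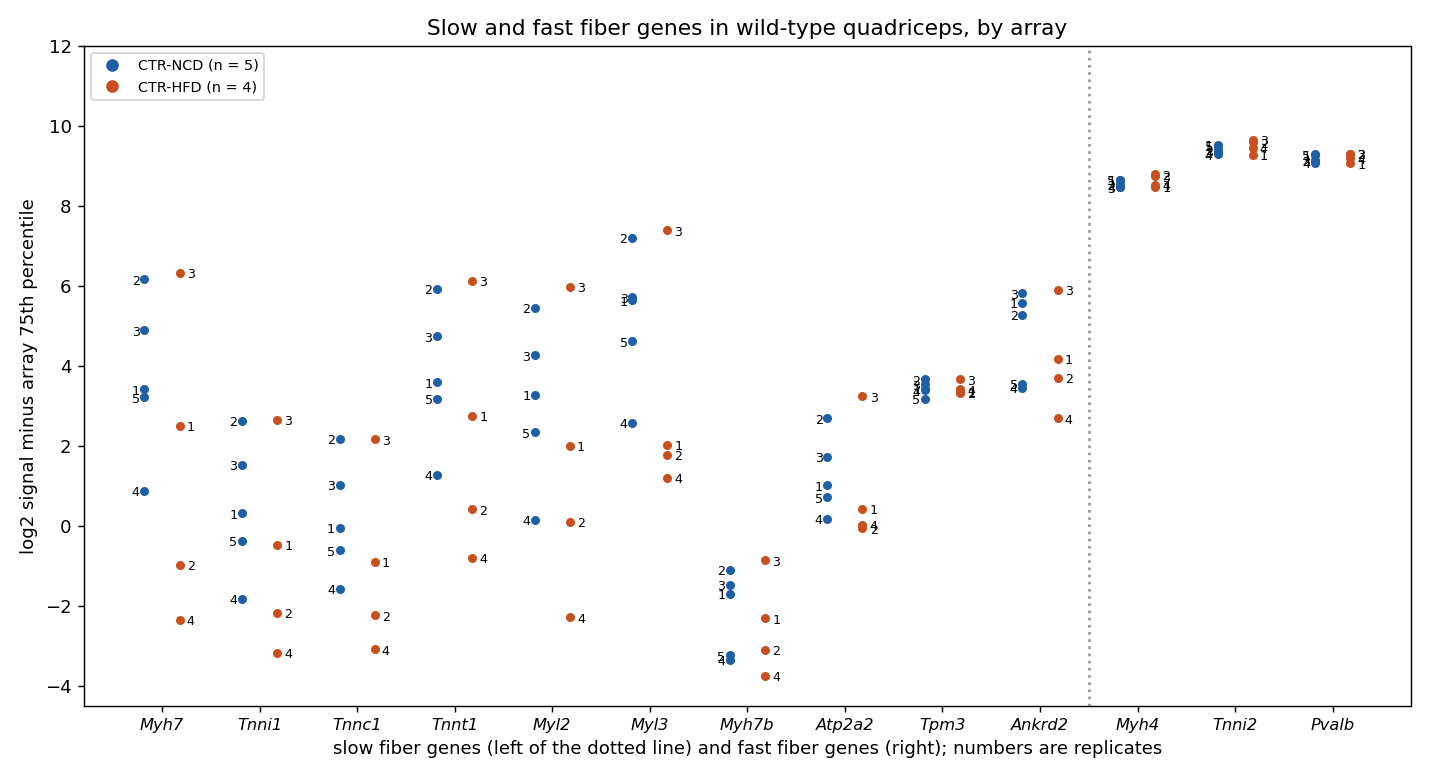
Log2 signal relative to the 75th percentile of the array for 10 slow and 3 fast fiber genes, with a point per array numbered by replicate (blue, CTR-NCD, n = 5, and orange, CTR-HFD, n = 4). HFD replicate 3 lies with or above the highest NCD array for most slow genes, HFD replicates 2 and 4 lie among the lowest, and the fast genes are tightly grouped.

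Of 49 oxidative phosphorylation genes, 41 had a positive difference, none passed an unadjusted p under 0.05 in limma and the median was 0.058, with Ndufa9 at 0.069, Cox4i1 at 0.082 and Atp5b at 0.12. Over all 24741 genes, 13654 were positive. Without HFD replicate 3, 18 were positive and the median was -0.024. The mitochondrial dynamics genes Dnm1l (0.089) and Opa1 (0.037) did not pass, although a second, dimmer Opa1 probe had 0.23 (limma, unadjusted p = 0.0251). Nor did the autophagy genes Sqstm1 (-0.068), Map1lc3b (0.032) and Tfeb (-0.043), the ubiquitin ligase genes Fbxo30 (0.053) and Fbxo21 (0.21), or the denervation-responsive genes Chrna1 (0.083), Chrng (-0.24), Myog (0.28) and Musk (0.0016). The AMP kinase subunit Prkag3 was at -0.44.

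Beyond the lists, the largest differences among named genes with an unadjusted p under 0.01 in limma and no overlap between the diets were led, among the higher genes, by Ubd, which encodes the ubiquitin-like modifier FAT10 that inflammatory cytokines are known to raise. Lack of overlap was a condition for being named here and is not a separate result. A gene also had to be well above background on every array of the NCD or of the HFD group. Dimmer genes, some with larger differences, could therefore not be named by this rule. Ubd was at -5.53, -4.57, -5.92, -3.91 and -4.95 on the NCD arrays and -3.29, -1.72, -3.87 and -0.75 on the HFD arrays. HFD replicate 4 was the highest and HFD replicate 3 lay close to the NCD range, and the difference was 2.56 ± 0.60 (SE) (limma, adjusted p = 0.347). With normexp background correction it was 1.14. In AR113Q muscle its diet difference was -0.18. The interferon-inducible GTPase Irgm2 (0.56 ± 0.16, SE) had the same HFD arrays, replicates 2 and 4, at its top.

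Fbp2, the muscle fructose bisphosphatase, was at 1.38, 1.13, 1.18, 1.17 and 1.12 on the NCD arrays and 2.71, 1.46, 1.93 and 1.82 on the HFD arrays, and its difference was 0.78 ± 0.17 (SE) (limma, adjusted p = 0.303). The 4 HFD arrays lay above the NCD arrays, and HFD replicate 1 was the highest. The 10 largest of these also held catalase (Cat, 0.52 ± 0.15, SE), the peroxisomal enzyme that clears hydrogen peroxide, Coq10b (0.49 ± 0.14, SE), a coenzyme Q binding protein, and the transcription factor Klf10 (0.60 ± 0.15, SE). Second, dimmer probes had 0.14 for Cat and 0.017 for Coq10b. Tmem139 (0.63 ± 0.19, SE, and 0.14 with normexp), Chi3l7 (0.49 ± 0.11, SE) and Mlycd were also among the 10, as was Plekhh1, at -4.09 ± 0.37 (SD, n = 5) on the NCD and -3.08 ± 0.64 (SD, n = 4) on the HFD arrays.

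Among the lower genes that met these conditions, Tbc1d30, a Rab GTPase activating protein, had the largest difference. Its signals were -4.20, -4.42, -2.65, -2.87 and -2.86 on the NCD arrays and -4.92, -4.77, -5.01 and -5.23 on the HFD arrays. The HFD arrays were tightly grouped below all NCD arrays, and NCD replicates 1 and 2 lay nearer to them than the other NCD arrays. Its difference was -1.58 ± 0.40 (SE) (limma, adjusted p = 0.347), or -0.60 with normexp background correction, and in AR113Q muscle it was 0.26. The organic anion transporter Slco4a1 (-0.76 ± 0.16, SE, and -0.29 with normexp) and the kinase gene Sbk2 (-0.76 ± 0.19, SE) also stood lower, with Fasn, Scd2, Nr1d1 and Aacs. The urea transporter Slc14a1 (-1.13), Spred3 (-0.97) and Il22ra2 (-0.90) were dim, and were well above background on all NCD arrays and on 1, 1 and 2 of the 4 HFD arrays. They thus met the background condition through the NCD arrays alone. With normexp background correction their differences were -0.14, -0.15 and -0.14, so their place among the 10 depended on the background method.

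Most lists of other cells leaned to negative differences. Negative were 13 of 14 antigen presentation, 21 of 26 collagen and matrix, 7 of 9 fibroblast and 6 of 8 red blood cell genes. At an unadjusted p under 0.05 in limma, 1, 1, 0 and 0 of them were lower, against 3.07% of all genes. Without NCD replicate 3, 14 collagen and matrix and 3 fibroblast genes were negative. Without HFD replicate 1, 2 red blood cell genes were. Schwann cell genes were divided, with 5 positive and 6 negative. Of 23 macrophage and inflammation genes, 18 had a negative difference and 1 was higher at an unadjusted p under 0.05 in limma, with Cd68 at -0.10, Emr1 at -0.10 and Ccl2 at -0.062. A single higher gene is below the 5.41% of all genes, and without NCD replicate 2 the list was divided into 11 positive and 12 negative differences. The exception was Saa3, an acute-phase serum amyloid of adipose tissue and macrophages, at -6.78, -8.28, -8.44, -7.65 and -6.41 on the NCD arrays and -5.00, -4.59, -7.05 and -1.66 on the HFD arrays. It was well above background on 1 NCD and 3 HFD arrays and highest on HFD replicate 4, with a difference of 2.94 ± 0.76 (SE) in the measured signals (limma, adjusted p = 0.347). Most NCD values were not well above background, and with normexp background correction the difference was 0.68. Of the white adipocyte markers, Mest (1.32 ± 0.50, SE), which is known to rise as fat tissue expands, and Agt (-0.25 ± 0.077, SE) passed the unadjusted threshold. Within the HFD group, Mest and Adipoq were both highest on replicates 2 and 4, and Plin1 (-0.18) and Cidec (0.40) did not pass.

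Of 10 endothelial markers, 8 had a negative difference and 3 were lower at an unadjusted p under 0.05 in limma: Pecam1 (-0.28 ± 0.11, SE), Tie1 (-0.39 ± 0.15, SE) and Tek (-0.28 ± 0.12, SE), all with overlapping arrays, against 3.07% of all genes. Without HFD replicate 3, 5 were lower, as were 886 of all 24741 genes, and the median was -0.19, where it was -0.054 with all arrays. Without HFD replicate 4 none of the 10 was lower at that p in limma. Kdr and Cdh5 (-0.03 and -0.034) did not pass. The summed log2 signal of the endothelial list was 4.78 to 4.93 on the NCD and 4.62 to 5.17 on the HFD arrays. The part of cell composition in the diet differences was not tested.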

How the data were processed

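RNA of wild-type and AR113Q quadriceps was measured on 1-colour Agilent arrays, read per the labels with Agilent Feature Extraction 10.7.3.1. The scanner tables deposited by the authors hold the processed intensity of each spot, already background-corrected by that software. The authors' normalized values, deposited on a log2 scale, were used as an alternative.

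After removal of control spots, replicate spots were averaged to 1 value a probe, and log2 intensity minus the 75th percentile of each array was used. Probes entered the test when a share of 0.5 or more of their spots exceeded background by the scanner software's own flag, on 4 arrays or more of the 19. All 19 arrays entered 1 limma fit (version 3.58.1, R 4.3.3), which shares the spread across the 4 groups, with Benjamini-Hochberg adjustment over all 32026 probes. Differences were also computed with the slide as a block, within slides and without each array, and with other normalizations, filters and designs. The fit was tested on simulated data. Probe positions are those of the files (mm9), and promoters are from RefSeq (GRCm38.p6). Probes of paralogs may share signal.

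Named genes were, first, the 10 largest differences in each direction with an unadjusted p under 0.01 and no overlap between the diets. These also had to be well above background on every array of the NCD or of the HFD group, and clone or predicted names were left out. The genes shown by the study were named too, as were, in each list described, the first 3 genes and those with an unadjusted p under 0.05. Genes named outside this rule, such as Thrsp and Per2, were chosen after their values were seen. The comparison and the lists were chosen with earlier results of these data known. In all, 33 lists were counted, and some of them are not described here. Some members of the cholesterol synthesis, beta-oxidation and clock lists are counted with their list and are not reported here by name.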

Additional observations from a re-analysis of the deposited data

Results flagged for a closer look

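Of 254 groups of arrays checked for a value far from the others, 9 stood out by the gap to the nearest array relative to the range of the group, and chance gives about 0.05 of groups. In the HFD group, replicate 3 stood apart in Atp2a2 (3.24, others -0.061 to 0.42), Slc2a3 (-0.62, others 0.35 to 0.50), Irs1 (2.79, others 3.39 to 3.50) and Cry2 (2.68, others 3.17 to 3.24). HFD replicate 1 stood apart in Scd2 (1.16, others 1.69 to 1.70) and Agt (-0.71, others -1.04 to -0.99). In the NCD group, replicate 1 stood apart in Fbp2 (1.38, others 1.12 to 1.18), Ppargc1a (3.68, others 2.40 to 2.74) and Myog (-1.46, others -2.23 to -2.09). All values are log2 signals relative to the 75th percentile of the array.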

How the results depend on the processing

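In the fits by limma, no gene passed the adjusted threshold under any alternative except where NCD replicate 5 was left out, or both NCD arrays with Ucp1 above background (an alternative chosen after seeing the data, as was a variance trend with a robust prior), which each called 1 gene, Slfn9, higher. The smallest adjusted p ran from 0.0109 without NCD replicate 5 to 0.992 with median centring, and was 0.0769 with the slide block. By an unadjusted p under 0.05, the counts of higher and of lower genes were 514 and 358 with median centring, 2252 and 1204 with the slide block, and 2288 and 1483 with the replicate block. Higher genes numbered 862 with the deposited normalized values, 769 from the 9 wild-type arrays alone and 2302 without the NCD arrays with Ucp1, where the fatty acid uptake median was 0.14. Leaving out each array in turn gave 0 to 1 called genes, 793 to 1911 higher and 606 to 950 lower genes, a fatty acid uptake median of 0.068 to 0.17, and a PPAR target median of 0.079 to 0.30, highest without HFD replicate 1. The endothelial median was -0.19 (without HFD replicate 3) to -0.026. In the other 308 alternatives a list's median moved by less than the SD of that list's mean signal between the NCD arrays, which was wide for slow fiber (median -0.063 without HFD replicate 4, -1.14 without HFD replicate 3), and in 52 alternatives a count moved by no more than 1.5 times. Leaving out an array also took the beta-oxidation median from 0.063 to 0.31 and the white adipocyte median from -0.15 to 0.24.

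The replicate numbers of the labels were not taken as pairs: the deviations of same-numbered NCD and HFD arrays correlated at 0.56, 0.10, 0.32 and 0.0043 for replicates 1 to 4. The deviations of arrays that shared a slide correlated at 0.56, 0.10, 0.32 and 0.26. The first 3 of these are the same array pairs as replicates 1 to 3, so the 2 sets of values are not separate checks. The replicate block called 0 genes, and the fatty acid synthesis median under it was -0.46.

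Of 60 named genes with an unadjusted p under 0.05, 26 had a difference that moved by over 1.5 times, in the same direction, under an alternative that kept all arrays, 20 of them with normexp background correction. It brought Ubd to 1.14, Saa3 to 0.68, Mest to 0.83, Plekhh1 to 0.49, Chi3l7 to 0.25, Tmem139 to 0.14, Tbc1d30 to -0.60, Fasn to -0.95, Elovl6 to -0.64, Insig1 to -0.37, Fads1 to -0.28, Pnpla3 to -0.20, Dhcr7 to -0.33, Nsdhl to -0.11, Slco4a1 to -0.29, Spred3 to -0.15, Il22ra2 to -0.14, Slc14a1 to -0.14 and Creb3l3 to -0.086. The deposited normalized values brought Acacb to 0.065, Bhlhe41 to -0.29, Coq10b to 0.25, Cpt2 to 0.20 and Tbc1d1 to 0.18.

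Differences near 0 changed sign in 120 gene alternatives, and the sign was kept in 2526. With quantile normalization, the difference was Hk2 -0.027, Opa1 -0.0063, Map1lc3b -0.013, Actb -0.049, Ucp3 -0.023 and Ppard -0.026. With median centring, the difference was Insr 0.014. With normexp background correction, the difference was Cidea 0.0096, Hk2 -0.015, Pvalb -0.020, Musk -0.0020, Map1lc3b -0.017, Actb -0.059, Ucp3 -0.0045 and Ppard -0.028. With the deposited normalized values, the difference was Ppara -0.13, Hk2 -0.0093, Fbxo30 -0.0051, Musk -0.0075, Map1lc3b -0.016, Actb -0.049, Ucp3 -0.029, Ppard -0.015 and Insr 0.074. With slide block, the difference was Musk -0.030, Opa1 -0.010, Ucp3 -0.044, Ppard -0.016, Insr 0.010, Ccl2 0.022 and Kdr 0.043. With replicate block, the difference was Actb -0.011 and Insr 0.011. With array weights, the difference was Ppara -0.17, Fbxo30 -0.0039, Cd36 -0.048, Lpl -0.13, Hadha -0.033, Pdk4 -0.036 and Ucp3 -0.079. With the NCD arrays with Ucp1 left out, the difference was Cidea 0.022, Ppara -0.23, Cd36 -0.017, Lpl -0.27, Hadha -0.098, Ucp3 -0.026, Ppard -0.0038, Pparg 0.017, Insr 0.015, Slc2a4 0.0054 and Plin1 0.38. Leaving out each array gave ranges across 0 for Actb -0.026 to 0.039, Adipoq -0.31 to 0.45, Ccl2 -0.20 to 0.050, Cd36 -0.19 to 0.34, Cdh5 -0.14 to 0.031, Chrna1 -0.030 to 0.18, Chrng -0.41 to 0.068, Cidea -0.94 to 0.43, Cox4i1 -0.028 to 0.14, Emr1 -0.19 to 0.027, Fbxo30 -0.033 to 0.15, Hadha -0.19 to 0.23, Hk2 -0.077 to 0.097, Insr -0.11 to 0.047, Kdr -0.14 to 0.11, Lpl -0.22 to 0.28, Map1lc3b -0.018 to 0.081, Mb -0.54 to 0.15, Musk -0.11 to 0.096, Myh7b -0.88 to 0.080, Ndufa9 -0.013 to 0.12, Opa1 -0.00060 to 0.074, Pdk4 -0.15 to 0.31, Pfkfb3 -0.27 to 0.26, Plin1 -0.54 to 0.16, Ppara -0.32 to 0.41, Ppard -0.040 to 0.046, Pparg -0.19 to 0.040, Slc2a4 -0.060 to 0.023, Tfeb -0.11 to 0.050, Ucp3 -0.11 to 0.17 and Zbtb16 -0.14 to 0.027. The cause of these changes was not tested. Signal over background limits dim genes such as Slc2a5 and Saa3.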
